A study of Ovis aries with 8 samples.

Results

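Adipose tissue takes up fatty acids in steps. Lipoprotein lipase frees them from circulating triacylglycerol at the vessel wall, carriers in the plasma membrane and caveolae move them into the fat cell, and small binding proteins hold them in the cytosol. The genes described here cover these steps: LPL with its inhibitor ANGPTL4 and the lipoprotein receptor VLDLR, the membrane carriers CD36 and SLC27A1, the binding proteins FABP3, FABP4 and FABP5, and the caveolins CAV1 and CAV2. They were chosen by gene symbol in the annotation of the array and are 10 of 9155 genes with a named probe set. Together they have 19 probe sets. For each gene the probe set with the highest mean stood for it, and the others served as a check.

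RNA came from perirenal adipose (kidney fat) of 4 NmatCpat lambs, which inherited the Callipyge mutation from the sire only, and of 4 NmatNpat lambs with no copy of the mutation. Each lamb was a male of the Dorset/Suffolk/Rambouillet cross-bred flock, 12 weeks old and not yet weaned, with pelleted alfalfa hay and barley on offer, and each gave 1 Affymetrix Bovine Genome array. The probes were designed on cattle sequence, so a sheep transcript that differs under them can read low. The comparison asks whether the mutation, known for its action in muscle, goes with altered transcript levels in a fat depot.

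Intensities were log2-transformed, then quantile-normalized, and all 24016 bovine probe sets were compared with limma (NmatCpat minus NmatNpat). A probe set was called at P of at most 0.05 together with more than 1.5-fold between the means, and separately at a Benjamini-Hochberg value below 0.05. By P and fold 943 probe sets (3.93%) were called, and 2.91% of genes when each was read on its brightest probe set. After adjustment limma called 0 (0%), and before it 1118 reached P of at most 0.05 whatever their fold. Of the fat cell markers, ADIPOQ was bright on every array at 12.81 to 13.29, and PPARG at 11.86 to 12.35. Others were dim, such as LEP and RETN at mean levels of 4.92 and 4.52. The mean deviation of the 17 measured markers from their means over the lambs was -0.04 to 0.21 in NmatCpat lambs. In NmatNpat lambs it was -0.21 to 0.00. The array of NmatNpat animal 1 stood apart, with 184 probe sets more than 3 log2 units higher than the average of the remaining lambs, where each of the other arrays had 20 to 54. The array of NmatCpat animal 4 had the highest reading for 12 of 19 skeletal muscle markers. Results that rest on either lamb are given with and without it. In whole tissue, fewer cells of a type and less RNA per cell cannot be told apart.

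None of the 10 genes differed between the genotypes by these thresholds, and none of their 19 probe sets did, against the 3.93% over the whole array. Of the 19, 15 lie above the median level, and a fit of those brighter probe sets alone called 244 of 12008. At such shares a count of 0 among 19 is not read as a trait of the members. No member probe set reached P of at most 0.05 even without the fold threshold. On the brightest probe sets 5 genes had a positive log2 difference, 4 a negative one and VLDLR one of 0.00, with a median of 0.02 against 0.00 over all genes. The median size of the difference was 0.06, against 0.14 for genes above the median level of the array, which all 10 are. Those genes were not matched to the members in level, so the smaller median is not read as a trait of the members. The median SD within a genotype was 0.0978 for probe sets near CD36 in level and 0.396 for those near SLC27A1. The 95% intervals excluded a 2-fold change either way for 9 genes, all but FABP3, and a 1.5-fold change for 4, namely CD36, FABP4, FABP5 and CAV1. The FABP5 interval says little, since quantile normalization fixed its reading on 7 of 8 arrays. With median-centred arrays the FABP5 interval ran from -0.3 to 0.41. For CAV1 the exclusion of a 1.5-fold change did not hold throughout. Its interval ran from -0.38 to 0.66 with median-centred arrays, and from -0.63 to 0.69 on its dimmer probe set, both reaching past 1.5-fold. Adjusted p-values lay between 0.98 and 1.0 for all 19 probe sets.

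**Figure D1:**
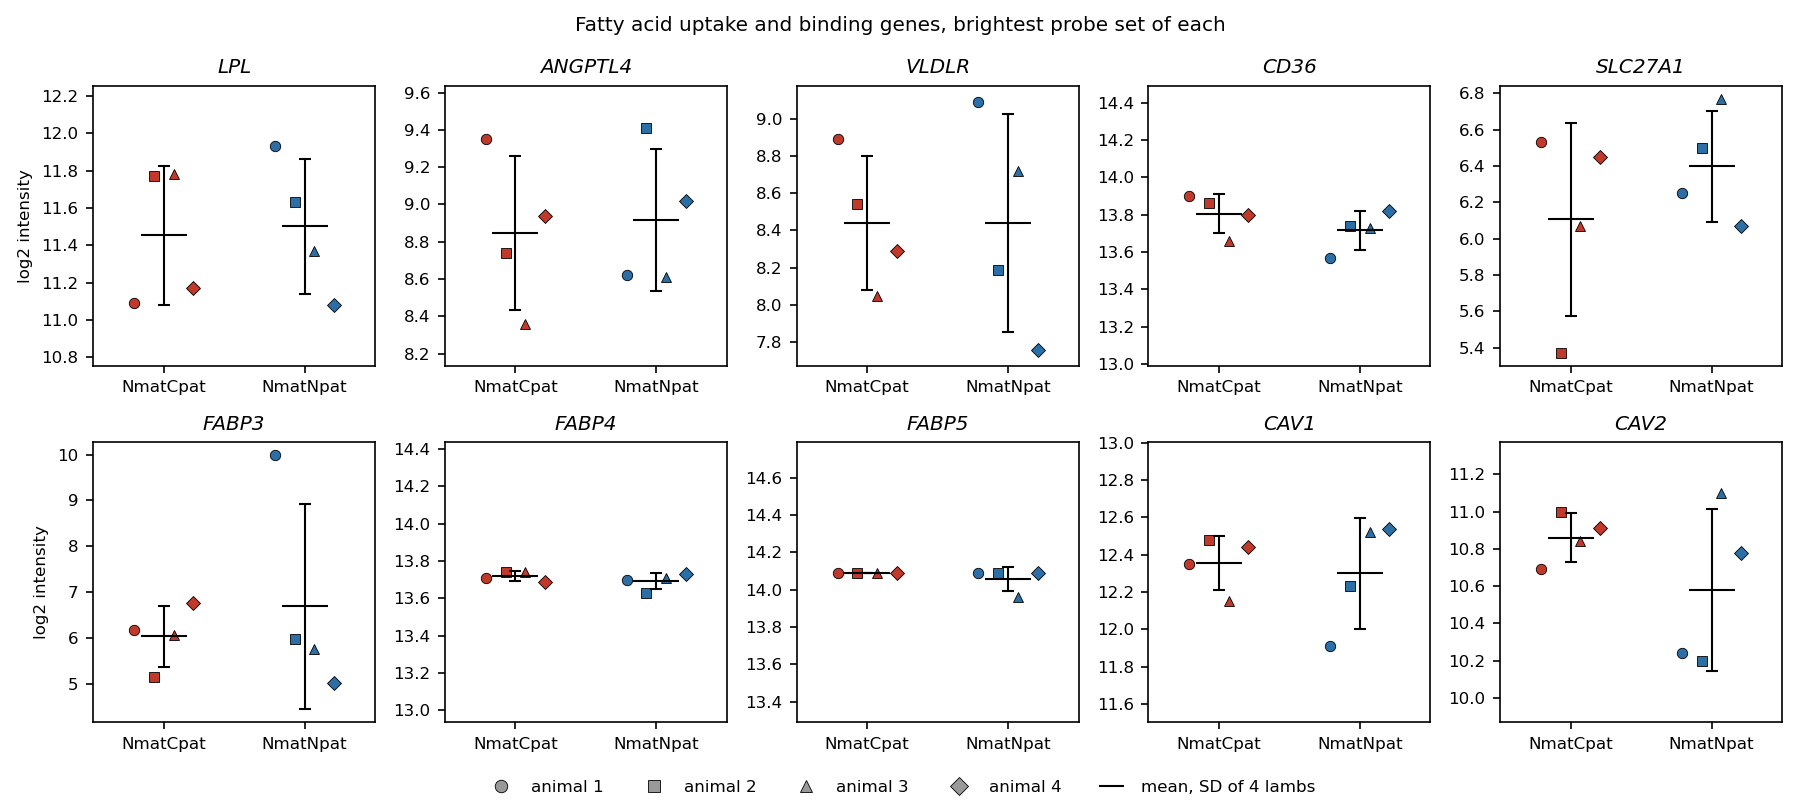
Log2 intensity (vertical axis, quantile-normalized, at least 1.5 units high in every panel) of the 10 genes on their brightest probe sets in NmatCpat (red) and NmatNpat (blue) lambs. Each symbol is a lamb, shaped by animal number, and the black bars give the mean and SD (n = 4); the genotypes overlap for every gene, and FABP3 of NmatNpat animal 1 lies at 9.99.

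LPL, the enzyme that hydrolyses the triacylglycerol of chylomicrons and very low density lipoproteins, is made by fat cells and acts on the capillary wall. It read 11.09, 11.77, 11.78 and 11.17 in NmatCpat lambs, against 11.93, 11.63, 11.37 and 11.08 in NmatNpat lambs. Each genotype had lambs at both ends of this range, and the lowest and the highest reading were both NmatNpat lambs. The means were 11.45 ± 0.37 in NmatCpat and 11.50 ± 0.36 in NmatNpat lambs (SD, n = 4 each), or -0.05 on the log2 scale (95% interval from -0.65 to 0.56, two-sided exact permutation test, p = 0.80). The sign of so small a difference turned to 0.09 without NmatNpat animal 1 and 0.05 without NmatCpat animal 4. LPL varied among lambs of one genotype with an SD of 0.366, more than 89% of the 200 probe sets closest to it in level, whose median SD was 0.191.

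ANGPTL4 encodes a secreted inhibitor of LPL that is induced by fasting and by fatty acids. It read 9.35, 8.74, 8.36 and 8.94 in NmatCpat lambs, against 8.62, 9.41, 8.61 and 9.02 in NmatNpat lambs. The ranges were nearly the same, and the difference was -0.07 (95% interval from -0.71 to 0.58, exact permutation test, p = 0.857). The sign turned to 0.09 without the lowest lamb, NmatCpat animal 3, and to 0.10 without the highest, NmatNpat animal 2.

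VLDLR, a receptor of the low density lipoprotein receptor family, binds triacylglycerol-rich particles and works beside LPL. It read 8.89, 8.54, 8.05 and 8.29 in NmatCpat lambs, against 9.09, 8.19, 8.72 and 7.76 in NmatNpat lambs, and the difference was 0.00 (95% interval from -0.75 to 0.76). The NmatNpat lambs spanned the whole range and enclosed every NmatCpat lamb. Of its 3 other probe sets, the one at a mean level of 6.50 had a difference of -0.28 (exact permutation test, p = 0.20), and the others, at mean levels of 3.60 and 2.18, had -0.45 and 0.17. The last 2 lie below the median level of the array, 5.99, and had wide intervals, from -2.38 to 1.48 and from -1.43 to 1.77.

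**Figure D2:**
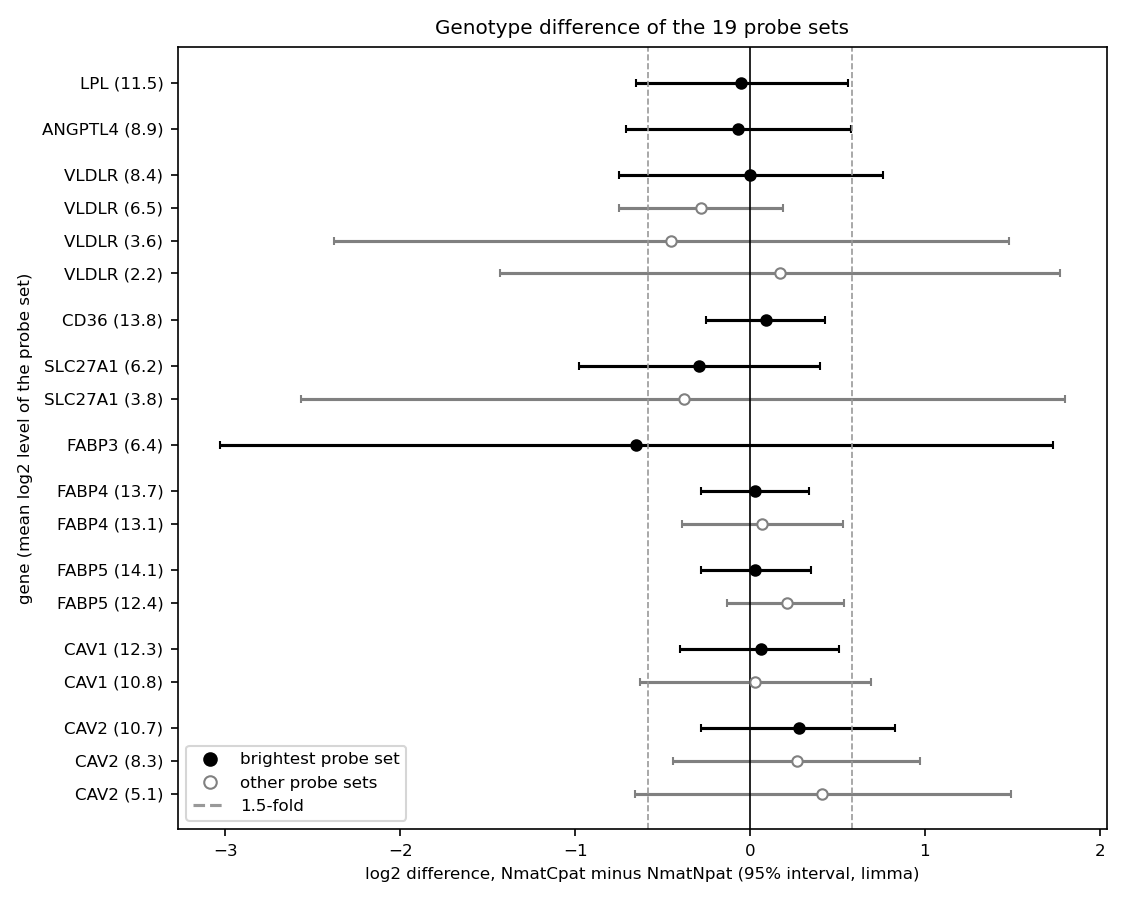
Log2 difference, NmatCpat minus NmatNpat (horizontal axis), of the 19 probe sets with 95% intervals from limma; filled points are the brightest probe set of a gene, open points the others, and the vertical axis gives each gene with the mean log2 level of the probe set. Every interval includes 0, and the widest, of FABP3, runs from -3.03 to 1.73.

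CD36, a membrane glycoprotein that binds long-chain fatty acids and takes them into fat and muscle cells, had a small spread in log2 units. Its SD within a genotype, 0.105, was near the median of probe sets of like level, 0.0978. With median-centred arrays the SD was 0.172, above 71% of probe sets of like level. CD36 read 13.90, 13.86, 13.66 and 13.80 in NmatCpat lambs, against 13.57, 13.74, 13.73 and 13.82 in NmatNpat lambs. The 2 highest readings were of NmatCpat lambs and the lowest was of NmatNpat animal 1, but the other lambs were mixed. The difference was 0.09 with a 95% interval from -0.25 to 0.43 (exact permutation test, p = 0.314), and it stayed between 0.04 and 0.14 under all 19 alternative settings.

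SLC27A1, or fatty acid transport protein 1, couples fatty acid entry to acyl-CoA formation and responds to insulin. It was dim, at 6.53, 5.37, 6.07 and 6.45 in NmatCpat lambs and 6.25, 6.50, 6.77 and 6.07 in NmatNpat lambs. NmatCpat animal 2 had the lowest reading, 5.37, and without that lamb the difference of -0.29 became -0.05. The 95% interval ran from -0.98 to 0.40 (exact permutation test, p = 0.429). A second SLC27A1 probe set was at a mean level of 3.75 with a difference of -0.38 and an interval from -2.57 to 1.80, and its readings did not follow those of the first (r = -0.39 between deviations from the genotype means, 8 lambs).

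FABP4, the abundant binding protein of fat cells that delivers fatty acids to the lipid droplet and to nuclear receptors, gave nearly the same reading in every lamb. On its brighter probe set it read 13.71, 13.74, 13.74 and 13.69 in NmatCpat lambs, against 13.70, 13.63, 13.71 and 13.73 in NmatNpat lambs. The difference was 0.03 (95% interval from -0.28 to 0.34, exact permutation test, p = 0.314). Its SD within a genotype, 0.0357, was below that of all but 8.5% of probe sets of like level, but the dimmer FABP4 probe set had an SD of 0.243, above 91% of its own. The dimmer one read 13.01, 13.38, 13.17 and 13.02 in NmatCpat lambs and 12.84, 12.83, 13.19 and 13.44 in NmatNpat lambs, a difference of 0.07 (95% interval from -0.39 to 0.53). Deviations on the 2 probe sets ran together over the lambs (r = 0.79, 8 lambs, with arrays and normalization in common).

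FABP5, the binding protein first described in skin and expressed in fat cells and macrophages, needs its deposited intensities, because its brighter probe set was the highest reading of the whole array on 7 of 8 arrays. Quantile normalization gives the highest reading of each array the same value, here 14.09, so differences between those lambs vanish by construction. In the deposited values this probe set read 18580.1, 17903.4, 15679.2 and 18054.1 in NmatCpat lambs, against 17035.8, 18289.6, 16260.2 and 16688.0 in NmatNpat lambs. The genotypes overlapped there as well, and with arrays centred on their medians in place of quantile normalization the log2 difference was 0.06 (standard error 0.15, exact permutation test, p = 0.343).

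The dimmer FABP5 probe set read 6197.6, 6257.2, 5787.9 and 5593.2 in NmatCpat lambs, against 4618.6, 4789.9, 5313.4 and 4944.5 in NmatNpat lambs, in deposited intensities. Here the lowest NmatCpat lamb was above the highest NmatNpat lamb (exact permutation test on the log2 scale, two-sided, p = 0.0286, the smallest that 4 against 4 lambs allow). It was 1 of the 19 member probe sets, and 2.70% of all bovine probe sets were likewise without overlap in deposited intensities. After quantile normalization it read 12.59, 12.57, 12.52 and 12.36 in NmatCpat lambs and 12.29, 12.24, 12.42 and 12.25 in NmatNpat lambs. The genotypes then overlapped by 1 lamb each, and none of the 19 probe sets was without overlap, against 2.74% of all bovine probe sets. The fitted difference was 0.21, a 1.16-fold level (95% interval -0.13 to 0.54), at an exact permutation p = 0.0571 and an adjusted p = 0.98 in limma. With median-centred arrays it was 0.30 (95% interval from -0.06 to 0.65). There the readings were 12.52, 12.66, 12.52 and 12.50 in NmatCpat lambs and 12.08, 12.23, 12.36 and 12.33 in NmatNpat lambs, again without overlap (exact permutation test, p = 0.0286), as in 2.66% of all bovine probe sets. Its unadjusted P in the fit, 0.19, was 0.018 in a linear model without moderated variances and 0.03 with a trended robust variance, but its fold stayed under 1.5 in every setting. This probe set was singled out after its values had been seen.

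**Figure D3:**
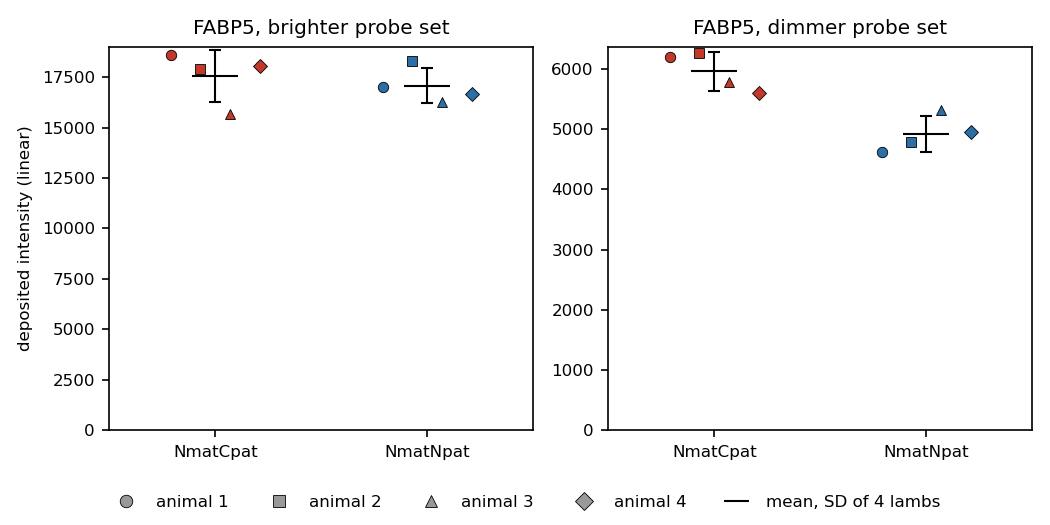
Deposited intensity (vertical axes, linear, from 0) of the 2 FABP5 probe sets in NmatCpat (red) and NmatNpat (blue) lambs; each point is a lamb, and the black bars give the mean and SD (n = 4). On the dimmer probe set NmatCpat lambs lie at 5593.2 to 6257.2 and NmatNpat lambs at 4618.6 to 5313.4, while on the brighter one they overlap.

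FABP3, the binding protein of heart and skeletal muscle that is also found in neurons and brown fat, varied most. It read 6.18, 5.15, 6.07 and 6.76 in NmatCpat lambs, against 9.99, 5.97, 5.77 and 5.02 in NmatNpat lambs. NmatNpat animal 1 alone was far above the rest, with a deposited intensity of 990.9 where the other lambs of both genotypes lay between 30.8 and 105.9. The difference was -0.65 with a 95% interval from -3.03 to 1.73 (exact permutation test, p = 0.886). Without NmatNpat animal 1 it turned to 0.45, and without that lamb and NmatCpat animal 4 it was 0.21. The SD within a genotype was 1.65 with all lambs, against a median of 0.386 for probe sets of like level. Without NmatNpat animal 1 it was 0.606, against a median of 0.357.

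On the array of NmatNpat animal 1, 12 of 14 measured markers of neurons and nerve had their highest reading of the 8 lambs. The mean level of the 14 was 5.42 to 5.93 in NmatCpat lambs, and in NmatNpat lambs 9.93 in animal 1 and 5.21 to 6.55 in the others. NEFL, a neurofilament subunit, read 12.13 in that lamb against 0.54 to 6.09 in the other lambs, and STMN2, a growth-associated protein of neurons, 12.41 against 2.17 to 6.74. The second highest FABP3, 6.76, was that of NmatCpat animal 4, which also led the muscle markers. The mean level of the 19 muscle markers was 5.81 to 5.97 in NmatCpat animals 1 to 3 and 6.95 in NmatCpat animal 4, against 5.36 to 6.15 in NmatNpat lambs. MYL2, a myosin light chain with a mean level of only 2.73, read 7.03 in NmatCpat animal 4 against 0.96 to 3.63 elsewhere. The muscle markers were not uniform in that lamb. CKM, at a mean level of 9.87, was lowest there, at 9.22 against 9.63 to 10.25 in the others. MYH7, at 11.89, lay within the range of the others, 11.25 to 12.31. UCP1, the uncoupling protein of brown fat, was lowest in NmatNpat animal 1, at 4.42, and highest in NmatCpat animal 4, at 7.11. It was dim, with a mean level of 5.65, below the median level of the array, 5.99. The brighter CIDEA, of the fat cell list, went the other way in these lambs. It read 9.75 in NmatNpat animal 1 and 9.28 in NmatCpat animal 4, within a range of 9.04 to 10.33 over all lambs. The part of nerve and muscle transcripts in the FABP3 readings was not tested.

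Of all named genes above the median level, the 3 whose deviations from the genotype means were most like those of FABP3 over the 8 lambs were NGFR (r = 0.983), TBP (r = 0.968) and CD3E (r = 0.966). NGFR, the low-affinity neurotrophin receptor of nerve cells, read 6.23, 5.76, 6.35 and 6.33 in NmatCpat lambs and 10.23, 6.72, 6.49 and 5.67 in NmatNpat lambs, with the same lamb at the top. TBP, the general TATA-binding factor, and CD3E, a chain of the T cell receptor complex, were also highest in that lamb, but by less, at 8.28 and 8.05 against 7.87 to 8.15 and 6.99 to 7.34 in the others. Without NmatNpat animal 1 the correlations were 0.84 for NGFR, 0.88 for TBP and 0.75 for CD3E. They were picked as the highest among 6333 genes, so their size is no result.

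**Figure D4:**
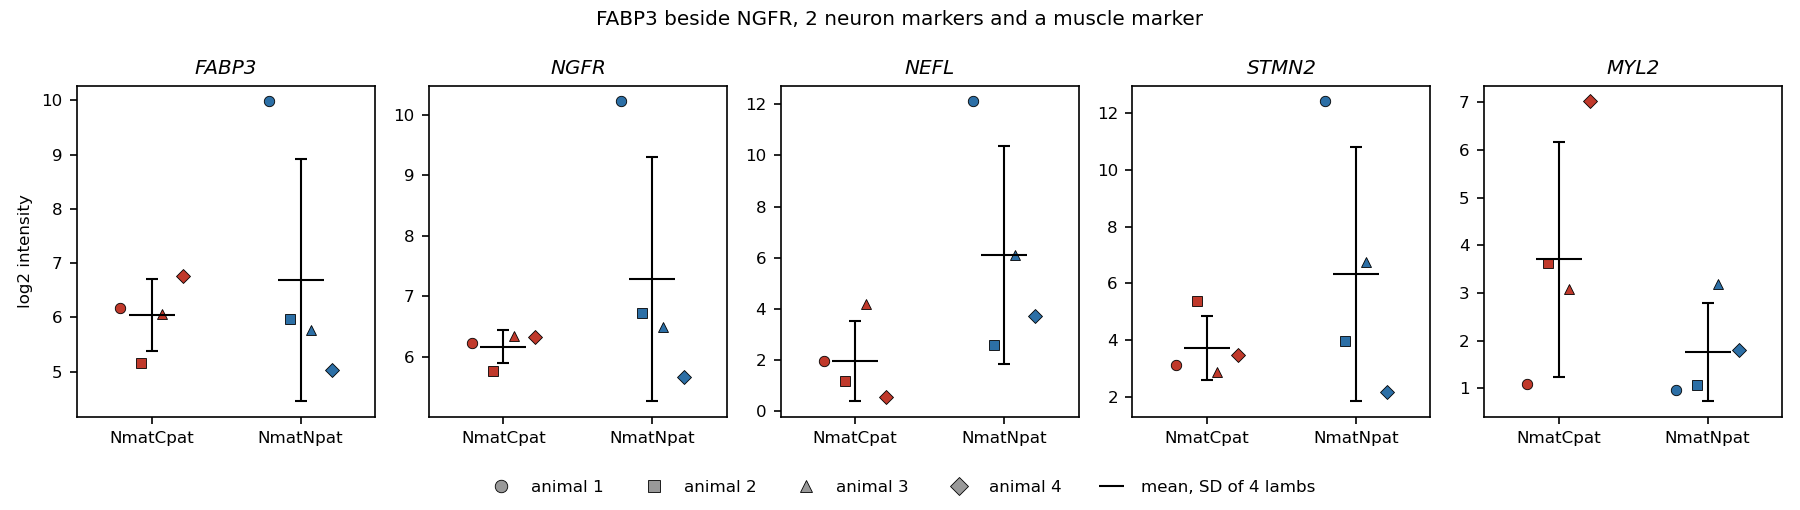
Log2 intensity (vertical axes, quantile-normalized, a scale of its own in each panel) of FABP3, of NGFR, of the neuron markers NEFL and STMN2 and of the muscle marker MYL2 in NmatCpat (red) and NmatNpat (blue) lambs. Each symbol is a lamb, and the black bars give the mean and SD (n = 4); NmatNpat animal 1 is highest for FABP3, NGFR, NEFL and STMN2, and NmatCpat animal 4 for MYL2.

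CAV1 and CAV2 encode the caveolins, membrane proteins that shape caveolae, the flask-like pits that cover much of the fat cell surface. CAV2 needs CAV1 to reach the membrane. In the sheep assembly ARS-UI_Ramb_v3.0 the genes are neighbours, with 1 annotated gene between them that is not protein-coding. CAV1 read 12.35, 12.48, 12.15 and 12.44 in NmatCpat lambs, against 11.91, 12.23, 12.52 and 12.54 in NmatNpat lambs. The NmatNpat lambs held both the lowest and the highest readings, and the difference was 0.06 (95% interval from -0.40 to 0.51, exact permutation test, p = 0.771). It turned to -0.07 without NmatNpat animal 1, and to -0.10 without that lamb and NmatCpat animal 4. The dimmer CAV1 probe set had a difference of 0.03 and was likewise lowest in NmatNpat animal 1, at 10.08 against 10.54 to 11.24 in the other lambs.

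CAV2 had the smallest P of the brightest probe sets, 0.28, and the largest positive difference. It read 10.69, 11.00, 10.84 and 10.91 in NmatCpat lambs, against 10.24, 10.20, 11.10 and 10.78 in NmatNpat lambs. The NmatCpat lambs lay close together while 2 NmatNpat lambs were low and 1 was above all NmatCpat lambs. The difference was 0.28, a 1.21-fold level, with a 95% interval from -0.28 to 0.83 (exact permutation test, p = 0.314). The 2 dimmer CAV2 probe sets had differences of 0.27 and 0.41, with intervals from -0.44 to 0.97 and from -0.66 to 1.49. CAV2 kept its sign under all alternatives, between 0.15 without NmatNpat animal 2 and 0.45 without NmatNpat animal 3, and passed the thresholds in none.

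The mean deviation of the 16 endothelial markers, whose cells also carry many caveolae and CD36, was 0.05 to 0.11 in NmatCpat lambs, against -0.50 in NmatNpat animal 1 and -0.09 to 0.17 in the other NmatNpat lambs. Of these markers 6 had their lowest reading in NmatNpat animal 1, among them KDR, a receptor of vascular endothelial growth factor, at 1.02 in NmatNpat animal 1 against 4.74 to 6.10 in the others. Without KDR the mean of the other 15 was -0.01 to 0.08 in NmatCpat lambs, against -0.27 in NmatNpat animal 1 and -0.08 to 0.15 in the other NmatNpat lambs. CDH5, the cadherin of endothelial junctions, was not low in that lamb, at 8.94 against 8.68 to 9.29 in the others. The mean deviation of the 12 macrophage markers was -0.36 to 0.61 in NmatCpat lambs, against -1.03 in NmatNpat animal 1 and -0.16 to 0.56 in the other NmatNpat lambs. NmatNpat animal 1 was thus the lamb with the lowest CD36 and CAV1, the highest LPL, VLDLR and FABP3, and the lowest mean for 5 of the 6 marker lists. Besides the endothelial and macrophage lists these were the fat cell list at -0.21, the skeletal muscle list at -0.58 and the connective tissue list at -0.29. These 3 ranks were narrow, with the next lowest lamb at -0.16, -0.57 and -0.21. Of the 17 fat cell markers 4 were lowest in NmatNpat animal 1 and 5 in NmatNpat animal 2. THRSP was far down in NmatNpat animal 1, at 5.03 against 6.43 to 7.61 in the others, while AQP7 was highest there, at 8.95. The part of these cells or of the array in the readings was not tested.

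Among the lambs some members ran together and others ran against each other. Of the 45 pairs of members, 6 (13.3%) had a correlation over 0.7 or under -0.7 between deviations from the genotype means, against 8.89% of all pairs of genes above the median level. CD36 and CAV1 (r = 0.80), CAV1 and CAV2 (r = 0.77) and CD36 and ANGPTL4 (r = 0.72) ran together. FABP3 and CAV1 (r = -0.82), FABP5 and CAV2 (r = -0.76) and LPL and CD36 (r = -0.72) ran in opposite directions. Without NmatNpat animal 1, 4 pairs (8.89%) were past 0.7 in either direction, against 13.2% of all such pairs of genes. Of the 6 only FABP5 with CAV2 was among them, at -0.73, and the 3 others were FABP3 with SLC27A1 at 0.89, FABP3 with FABP4 at -0.75 and ANGPTL4 with CAV2 at -0.71. CAV1 with CAV2 was at 0.70, CD36 with ANGPTL4 at 0.68, CD36 with CAV1 at 0.61, LPL with CD36 at -0.58 and FABP3 with CAV1 at -0.37. All these values rest on 8 lambs or fewer that share arrays and normalization, and the FABP5 value on the 1 lamb in which it was not the highest reading.

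**Figure D5:**
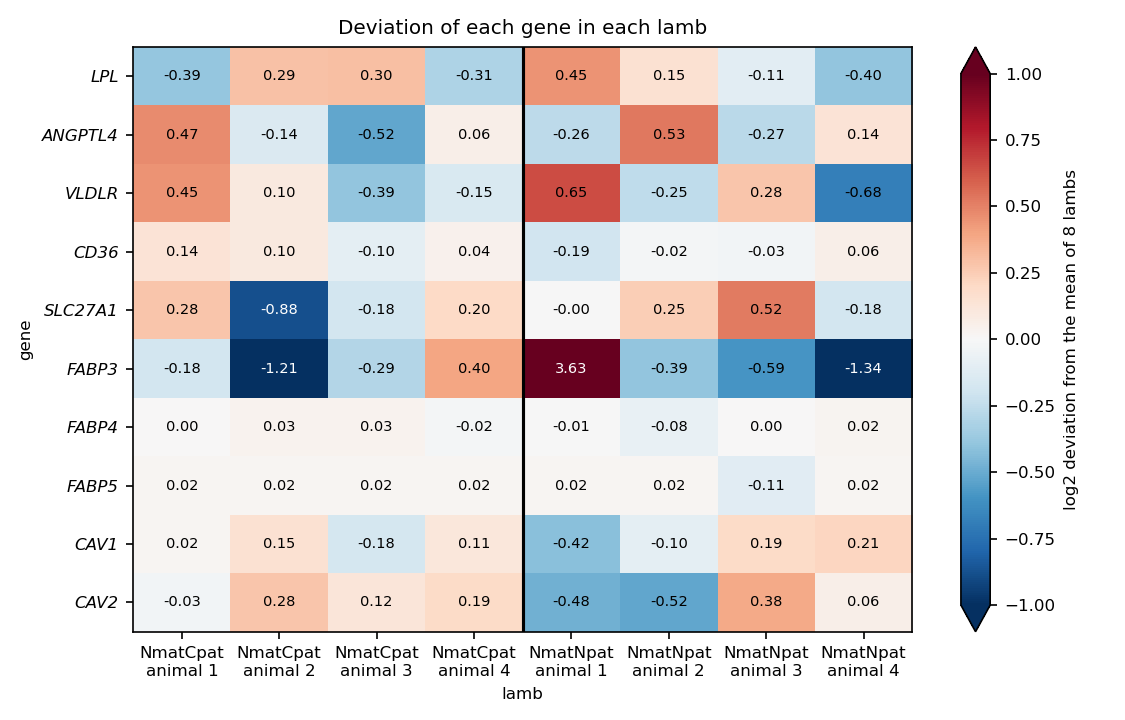
Deviation of each gene from its mean over the 8 lambs (log2 units, colour scale from -1 to 1, larger values at the end colours) for the 4 NmatCpat lambs, left of the line, and the 4 NmatNpat lambs, right of it. The strongest deviation is that of FABP3 in NmatNpat animal 1. The even row of FABP5 comes from quantile normalization, which gave it 14.09 on 7 of 8 arrays.

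The spread among lambs of one genotype was set against that of the 200 probe sets closest in level. It was above their median for 8 of the 10 genes with all lambs and for 7 without NmatNpat animal 1, where CD36 was below it. FABP3 exceeded 99.5% of them with that lamb and 88% without it, VLDLR 90.5% and 85.5%, LPL 89% and 87.5%, ANGPTL4 83.5% and 86.5%, CAV2 83.5% and 82%, CAV1 78% and 51.5%, SLC27A1 57% and 65%, and CD36 53% and 46.5%. Other probe sets of a gene could rank elsewhere, as for VLDLR, whose next brightest exceeded 19%, and for FABP4, as given above. FABP5 was counted among the 10 as below the median. Its SD on the brighter probe set is fixed by the normalization on 7 of 8 arrays and was not read further. With median-centred arrays it was 0.101, above 32.5% of the probe sets of like level.

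Further genes of the pathway were read from 7 lists, of which 75 of 104 symbols, older symbols included, had a named probe set. None of the 75 passed P and fold, against 2.91% of all genes, and 42 had a positive difference. Of the partners and regulators of LPL 1 of 8 measured was higher and 7 lower, with a median difference of -0.16 and 0 passing. The smallest P there was that of APOC2, the cofactor that activates LPL, with a difference of 0.85 (95% interval from -0.12 to 1.81) and overlapping readings of 4.99 to 5.92 in NmatCpat lambs and 3.47 to 5.21 in NmatNpat lambs. LMF1, which matures LPL in the endoplasmic reticulum, had a difference of -0.25. Of 5 lipoprotein receptors 2 were higher and 3 lower, with a median of -0.02 and LRP8, a receptor of apolipoprotein E, at the smallest P with 0.46 (95% interval from -0.03 to 0.96) on a very dim probe set of mean level 2.59.

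Of 13 other carriers and binding proteins 9 were higher and 4 lower, with a median of 0.18 and none passing. RBP4, the plasma carrier of retinol that fat cells secrete, had the smallest P, 0.013. It read 10.46, 10.83, 10.63 and 10.47 in NmatCpat lambs, against 9.95, 9.96, 10.28 and 10.05 in NmatNpat lambs. The genotypes did not overlap, but the difference was 0.54 (95% interval 0.15 to 0.92), under 1.5-fold, and limma gave an adjusted p = 0.98. GOT2, a mitochondrial aminotransferase that also binds fatty acids at the cell surface, had 0.06.

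Of 7 acyl-CoA synthetases, which trap fatty acids in the cell as their CoA esters, 6 were higher and 1 lower, with a median of 0.08. ACSL5 read 7.94, 7.85, 7.99 and 7.93 in NmatCpat lambs, against 7.69, 7.03, 7.34 and 7.59 in NmatNpat lambs. All NmatCpat lambs lay above all NmatNpat lambs, with 0.51 between the means (95% interval 0.08 to 0.95) and an adjusted p = 0.98 in limma. ACSL1, the main synthetase of fat cells, had 0.02 with an interval from -0.33 to 0.37. Of 9 genes of the caveola coat and of caveola dynamics 3 were higher and 6 lower, with a median of -0.04. The coat proteins CAVIN2, with the smallest P of that list, CAVIN1 and CAVIN3 had 0.17, 0.19 and -0.04, all with intervals that include 0.

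Among 16 regulators of these genes 11 were higher and 5 lower, with a median of 0.13, and none passed. PPARG, the nuclear receptor that drives LPL, CD36 and FABP4 in fat cells, had a difference of -0.06 (95% interval from -0.49 to 0.36). NCOR1, a corepressor of nuclear receptors, had the smallest P with 0.46, while its other probe sets ran from -0.08 to 0.30. Of 18 further target genes of the PPAR receptors 11 were higher and 7 lower, with a median of 0.13. The smallest P was that of ACADM, a dehydrogenase of fatty acid oxidation, with 0.49 (95% interval from -0.05 to 1.04).

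Over the 75 genes 5 reached P of at most 0.05 without regard to fold, where 3.79% of all genes did. Besides RBP4, ACSL5 and NCOR1 these were FABP2, the intestinal binding protein, with a difference of 0.58, and NR1H2, a liver X receptor, with -0.38, both singled out after their values were seen. In 4 of the 75 (5.33%), RBP4, ACSL5, NCOR1 and NR1H2, the genotypes did not overlap, against 2.84% of all genes. Without NmatNpat animal 1 and NmatCpat animal 4, 4 of the 75 passed P and fold, where 275 of all 9155 genes did, and 4.29% of all bovine probe sets. They were ACSL5 with 0.61, ACADM with 0.69, the adipogenic factor CEBPA with 0.64, and SLC27A2, an acyl-CoA synthetase and carrier of liver and kidney, with 2.27 (adjusted p = 0.84 from limma). In all 8 lambs SLC27A2 read 4.37 to 4.79 in NmatCpat lambs, against 1.60 to 5.89 in NmatNpat lambs, NmatNpat animal 1 being the highest of all. SLC27A2 and FABP2 were dim, at mean levels of 3.92 and 5.18, below the median level of the array, 5.99.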

How the data were processed

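Per the labels, the authors pre-processed the scanned arrays with MAS5 (no version stated). Their methods add background correction and quantile normalization. The deposited intensity values are linear, 24128 probe sets per array, with medians of 65.3 to 72.6 that differ between columns, so log2 values were quantile-normalized here. No 2 arrays shared more than 0.34% of their values. The 112 control probe sets were left out after normalization, and a model of genotype alone was fitted to the other 24016 (limma 3.58.1, lmFit and eBayes, R 4.3.3, Benjamini-Hochberg adjustment). Calls followed the study's P and fold; its methods name a commercial package but no statistic. Exact permutation tests cover the 70 arrangements of the lambs. Symbols came from the platform annotation: 13292 probe sets had 1 symbol, 86 several and 10638 none, and only those with 1 were named. Sheep assembly ARS-UI_Ramb_v3.0 named 9 of the 10 genes and served for neighbours only. The members and lists were chosen with earlier results of these data known. Of other genes, those past P and fold or with the smallest P of a list were named, with the 3 genes most like the most variable member; all others were chosen after their values were seen. Alternatives were other variance models, array weights, median centring, cyclic loess, an offset of 16, filters on dim and cross-hybridizing probe sets, the animal number as a block, lambs left out, and the mean of all probe sets. The fit was tested on simulated data. Only 8 arrays limit the precision.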

Additional observations from a re-analysis of the deposited data

Results flagged for a closer look

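Dixon's test at the 95% level was applied to each genotype's 4 lambs on the member probe sets, except FABP5 on its brighter one in NmatCpat lambs, whose normalized readings were all equal. Chance flags about 1 group in 20, and 2 of 37 groups were flagged. On the brighter FABP5 probe set NmatNpat animal 3 read 13.96 while the other NmatNpat lambs all read 14.09, the value that quantile normalization gives to the highest reading of an array. On a dimmer CAV2 probe set NmatNpat animal 1 read 7.37, against 8.40 to 8.48 in the other NmatNpat lambs. FABP3 of NmatNpat animal 1, at 9.99, was not flagged, because the other NmatNpat lambs were themselves spread from 5.02 to 5.97.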

How the results depend on the processing

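No member gene passed P and fold under any of the 19 alternatives of the fit, and none reached P of at most 0.05 on its brightest probe set, where the smallest was 0.072 for CAV2 without NmatNpat animal 3. Of 190 differences of members under these alternatives 173 were counted as keeping their sign and 17 as changing it. A difference that rounded to 0.00 under an alternative was counted as kept, as for FABP5 with cyclic loess and without NmatNpat animal 3. Without NmatNpat animal 1, FABP3 was 0.45, LPL 0.09 and CAV1 -0.07, and without that lamb and NmatCpat animal 4 FABP3 was 0.21, LPL 0.19 and CAV1 -0.10. When single lambs were left out, differences ran from -0.24 to 0.10 for ANGPTL4, -0.07 to 0.14 for CAV1, -1.2 to 0.45 for FABP3, -0.19 to 0.09 for LPL and -0.22 to 0.22 for VLDLR. LPL was 0.07 without NmatCpat animal 1 and 0.05 without NmatCpat animal 4. ANGPTL4 was 0.09 without NmatCpat animal 3 and 0.10 without NmatNpat animal 2. VLDLR, at 0.00, was -0.15, -0.03, -0.08 and -0.22 without NmatCpat animal 1, NmatCpat animal 2, NmatNpat animal 2 and NmatNpat animal 4, -0.14 as the mean of its probe sets and -0.01 with cyclic loess, where FABP4 was -0.02. The dimmer FABP5 probe set stayed between 0.18 and 0.30, and its unadjusted P was 0.018 in the linear model without moderated variances and 0.03 with a trended robust variance, against 0.19 in the fit reported. In deposited intensities and in median-centred values, both added after seeing the data, 1 member probe set was without overlap, that of FABP5.

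Over all probe sets 626 passed P and fold without moderated variances and 244 above the median level, where 12008 were tested; leaving out single lambs gave 979 to 1052. After adjustment 1 passed with a trended robust variance, 1 with the offset, 1 above the median level, and 0 to 2 when single lambs were left out. The animal number did not pair the lambs (correlations of deviations from -0.0131 to 0.048), and as a replicate block it gave 1124 probe sets past P and fold, 0 after adjustment and 0 members.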
